A study of Mus musculus with 36 samples.

Results

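The CCT chaperonin (chaperonin containing TCP1, also called TRiC) is a barrel of stacked rings in which 8 different but related proteins each take a fixed place. The barrel binds and hydrolyses ATP, and it closes over newly made actin, tubulin and many WD40 repeat proteins while they fold. Young neurons make much tubulin and actin as their axons and dendrites grow. A complete ring needs the same number of each subunit, so the question here was whether the 8 mRNAs carry equal levels of ribosome footprints. A footprint level counts moving and stalled ribosomes alike and is not a rate of protein synthesis. The 8 genes Tcp1, Cct2, Cct3, Cct4, Cct5, Cct6a, Cct7 and Cct8 were taken by symbol from the count table of 16614 genes, and each was present once. Their levels were read in all 36 libraries, and their footprint peaks in the 12 libraries for which peaks were deposited.

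Ribosome-protected fragments (RPFs, or footprints) were sequenced from brains of C57BL/6 wild-type (WT) mice and of FMR1 KO mice, which lack the RNA-binding protein FMRP in every tissue, at postnatal day 5. Each preparation pooled 10 brains. Footprints came from the pellet of a sucrose gradient, which is enriched in RNA granules with stalled ribosomes, and from fraction 5/6 of the same kind of gradient, which holds polysomes; RNA-seq was done on whole brain homogenate. The standard preparation used 10 mM MgCl2 and high nuclease, and the low nuclease preparation used 2.5 mM MgCl2, with 3 libraries for each of the 12 groups. Abundance is the level of pellet footprints, occupancy is pellet footprints against RNA-seq, and enrichment is pellet footprints against fraction 5/6.

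Levels are given as CPM, counts scaled to the library total, after leaving out Cdk8, a row that took 36.7% to 63.4% of the counts in the 12 standard footprint libraries, 2.69% to 5.62% in the low nuclease footprint libraries and 0.00492% to 0.0338% in standard RNA-seq. Without it, the footprint libraries held 4284209 to 60377525 counts and the standard RNA-seq libraries 112240104 to 147207607. Fmr1 was at 64.6 to 67.8 CPM in pellet footprints of WT and at 4.79 to 4.93 CPM in those of FMR1 KO. The library labelled WT fraction 5/6 replicate 3 had 3.17 CPM of Fmr1, against 68.6 and 100 CPM in the other WT libraries of that fraction, so the tests that use it are also given without it. Of the low nuclease RNA-seq libraries, 3 stood apart, with 82.4% to 85.0% of their counts in 10 genes and 0.0109% to 0.0173% in the 8 CCT genes, against 0.0969% to 0.141% in the other 3. The low nuclease RNA-seq libraries entered no 2-group comparison, only the alternative with all 12 groups in 1 fit and the correlations over group means. Neuronal markers were high in all standard groups (Tubb3 at 1533 to 4135 CPM), markers of glial progenitors were present (Fabp7 at 363 to 1102 CPM, Pdgfra at 3.75 to 32.1 CPM), and Hbb-bs of red blood cells was at 0.531 to 5.60 CPM in footprints and at 119 to 283 CPM in RNA-seq. The muscle gene Acta1 was at 6.47 to 12.9 CPM in all standard libraries except 1 WT and 1 FMR1 KO pellet library, at 314 and 124 CPM.

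The 8 genes lie on 8 chromosomes of GRCm38. Tcp1 (ENSMUSG00000068039) encodes the alpha subunit and lies at chr17:12915701-12925067 on the plus strand, Cct2 (ENSMUSG00000034024, beta) at chr10:117051001-117063814 on the minus strand, Cct3 (ENSMUSG00000001416, gamma) at chr3:88297116-88321767 on the plus strand and Cct4 (ENSMUSG00000007739, delta) at chr11:22990519-23003780 on the plus strand. Cct5 (ENSMUSG00000022234, epsilon) lies at chr15:31590800-31601804 on the minus strand, Cct6a (ENSMUSG00000029447, zeta) at chr5:129786998-129846371 on the plus strand, Cct7 (ENSMUSG00000030007, eta) at chr6:85451514-85468475 on the plus strand and Cct8 (ENSMUSG00000025613, theta) at chr16:87483326-87495873 on the minus strand. Their coding sequences are of similar length, from 1608 nt for Cct2 to 1671 nt for Tcp1, apart from Cct6a with 1467 nt. For Cct6a, RefSeq aligns only 91% of the protein to this genome build, and GENCODE M21 calls the gene a processed transcript. Copies elsewhere in the genome also differ. Of the coding 30-mers, 81.4% occur once in the genome for Cct3, 86.5% for Cct7 and 92.4% to 99.1% for the other 6. Tcp1, Cct6a, Cct7 and Cct8 also share 192 to 850 exonic nt with neighbouring genes, and whether strand was used in counting is not given in the sources used here.

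In the standard pellet, footprint levels of all 8 subunits lay within a narrow range. Levels per kb of coding sequence ran from 146 to 389 CPM per kb over the 8 genes and 6 libraries, and within a library the highest subunit was 1.60 to 1.68 times the lowest. The SD of the log2 level over the 8 genes was 0.244 ± 0.014 (SD, n = 6 libraries). For scale, the same SD over 13715 coding genes with a mean of at least 1 CPM was 2.54 to 2.66 in those libraries, a value that covers genes of all kinds.

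Per kb of coding sequence, Cct6a was highest in the pellet, at 346, 368 and 320 CPM per kb in WT and 389, 236 and 381 in FMR1 KO. It was the highest subunit in all 6 libraries, and its groups overlapped between the genotypes. This rank rests on the length of 1467 nt, which covers 91% of the protein. Its lead over Cct8 was 1.03 to 1.16 times per kb, and in CPM not divided by length Cct8 was above Cct6a in 5 of 6 libraries. Cct8 followed at 310, 318 and 309 CPM per kb in WT and 353, 229 and 344 in FMR1 KO, below Cct6a and above Cct7 in 6 of 6 libraries.

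Cct7, Cct2, Cct5 and Tcp1 lay in the middle. Cct7 was at 291, 310 and 250 CPM per kb in WT and 300, 188 and 334 in FMR1 KO. Cct2 was at 274, 297 and 267 CPM per kb in WT and 298, 181 and 311 in FMR1 KO. Neighbours among these 4 changed places between libraries: Cct7 was above Cct2 in 5 of 6 libraries, Cct2 above Cct5 in 4 and Cct5 above Tcp1 in 3. Cct5 was at 262, 276 and 240 CPM per kb in WT and 311, 182 and 297 in FMR1 KO, and Tcp1, the gene that gave the complex its name, at 267, 282 and 257 CPM per kb in WT and 287, 182 and 286 in FMR1 KO.

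Cct3 and Cct4 were lowest. Cct4 was at 214, 229 and 201 CPM per kb in WT and 241, 146 and 238 in FMR1 KO. It was below Tcp1 in 6 of 6 libraries. Cct3 was at 206, 228 and 192 CPM per kb in WT and 246, 146 and 254 in FMR1 KO. Cct4 and Cct3 did not differ beyond their spread, since Cct4 was above Cct3 in 4 of 6 libraries. FMR1 KO pellet replicate 2 was the lowest library for each of the 8 genes.

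**Figure D1:**
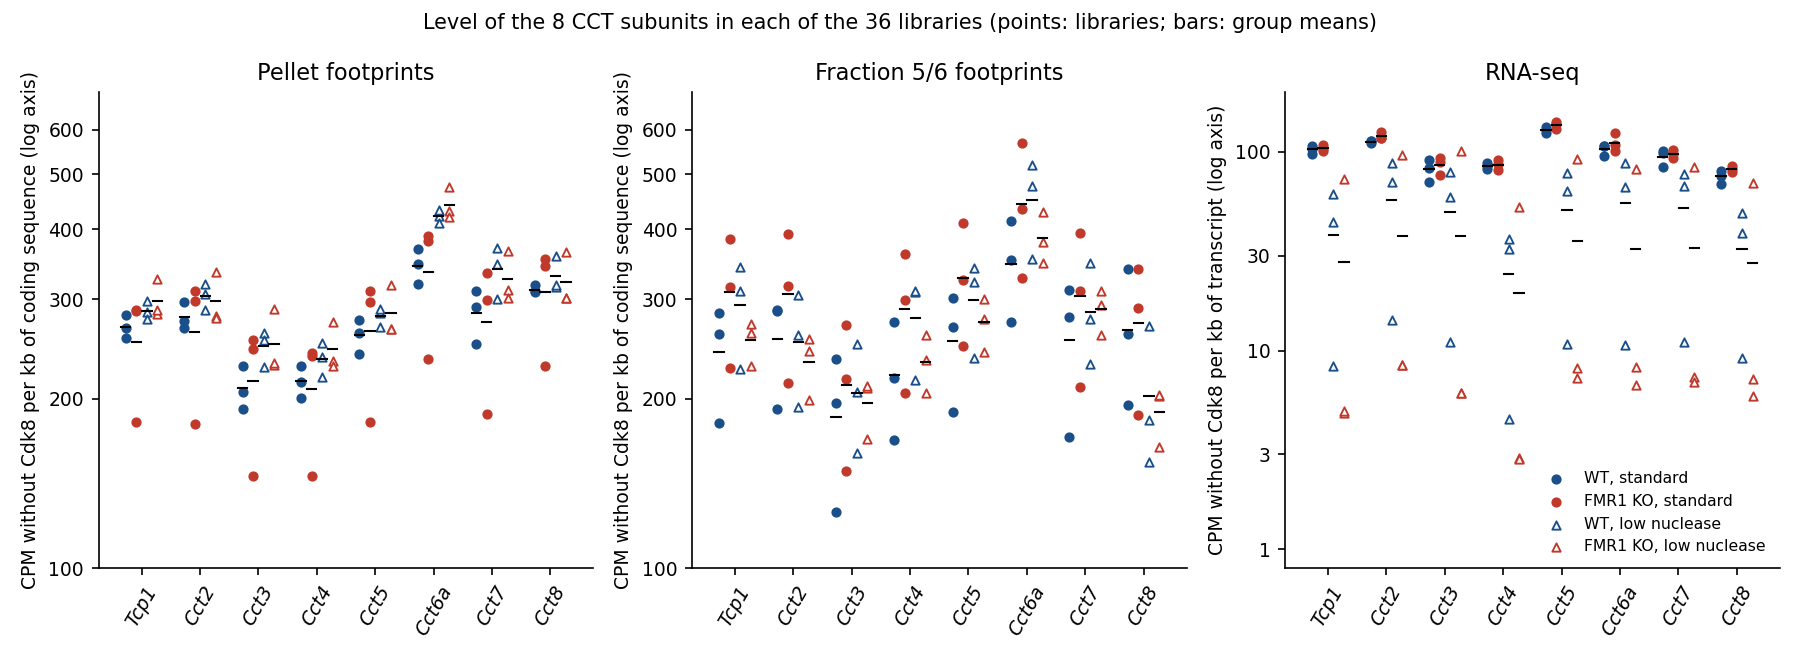
Level of each of the 8 subunits in each of the 36 libraries, as CPM without Cdk8 per kb of coding sequence for footprints and per kb of transcript for RNA-seq (log axes, which differ between footprints and RNA-seq); each point is a library and each bar a group mean of 3. In the standard pellet the points lie between 146 and 389 CPM per kb, and the low nuclease RNA-seq libraries fall into a high and a low set.

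The level of each subunit relative to the geometric mean of the 8 in the same library does not depend on library scaling. In the standard pellet it was 1.28 for Cct6a, 1.18 for Cct8, 1.05 for Cct7, 1.02 for Cct2, 0.986 for Cct5, 0.984 for Tcp1, 0.798 for Cct4 and 0.797 for Cct3 (n = 6 libraries). On the log2 scale the SD between libraries was 0.0110 for Cct4 to 0.0677 for Cct7, so the places of Cct6a and Cct8 above the mean, and of Cct3 and Cct4 below it, were larger than the spread between libraries. The choice of length moved these values. With unique coding 30-mers in place of coding length, Cct3 was at 0.913 of the ring mean and Cct4 at 0.806, and the SD over the 8 genes was 0.201. Cct6a was then highest at 1.22, followed by Cct7 at 1.13 and Cct8 at 1.12. With the union of all annotated exons, the SD was 0.647, and Cct2 (1.61), Cct8 (1.58) and Cct5 (1.45) stood above Cct6a (1.31), with Cct3 lowest at 0.515.

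RNA-seq showed another order and, with each kind on its own length, a similar width. On the same length for both, RNA-seq was wider, which was not tested. Its SD was 0.265 against 0.175 in the pellet with transcript length. It was 0.286 against 0.244 with coding length and 0.249 against 0.201 with unique coding 30-mers. With the union of exons it was 0.661 against 0.647, within the spread between libraries. Per kb of transcript, the SD of the log2 level over the 8 genes was 0.265 ± 0.0282 (SD, n = 6 standard libraries) and the highest subunit was 1.60 to 1.80 times the lowest. Cct5 was highest, at 124 to 141 CPM per kb with a median of 131, and above Cct2 in 6 of 6 libraries. Cct8 was lowest, at 69.2 to 84.7 CPM per kb with a median of 79.6, and below Cct3 in 5 of 6 libraries. Cct8 was thus at 0.792 of the mean of the 8 in RNA-seq and at 1.18 in pellet footprints, while Cct5 was at 1.34 in RNA-seq and 0.986 in the pellet. These values compare footprints per kb of coding sequence with reads per kb of transcript, so only the places within each kind of library were read.

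**Figure D2:**
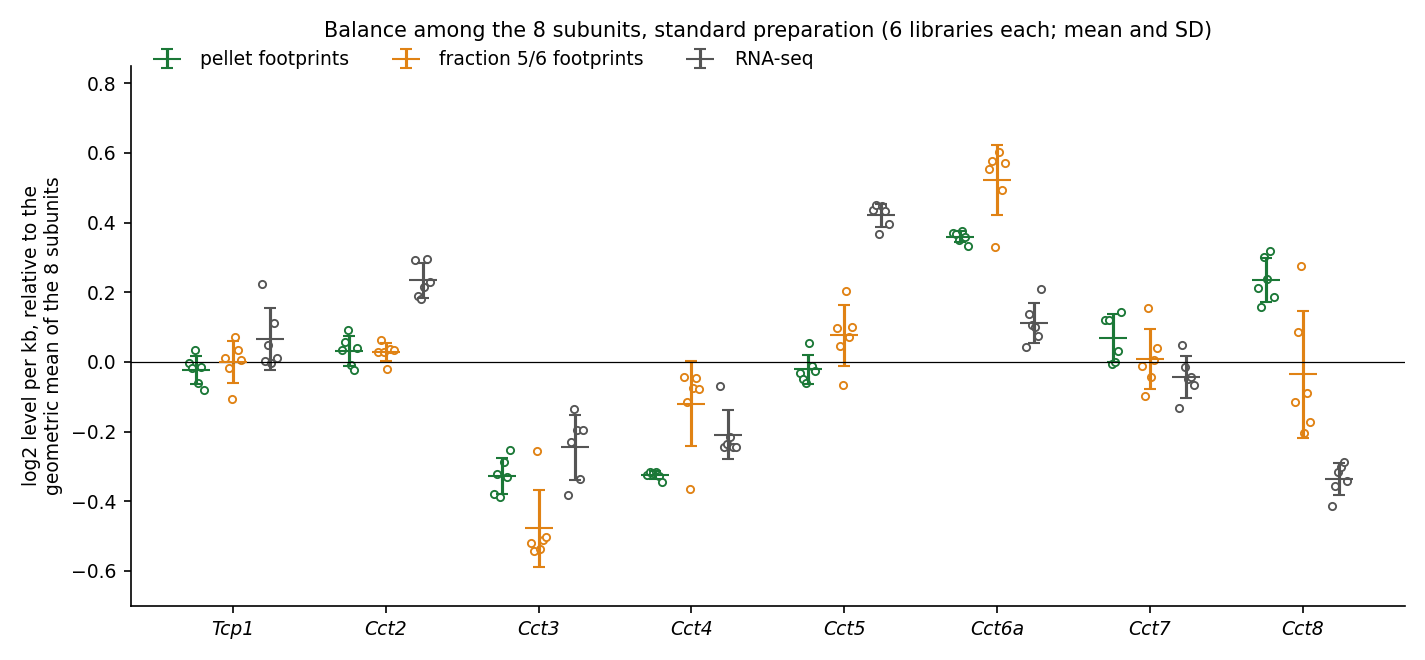
Log2 level per kb of each subunit relative to the geometric mean of the 8 in the same library, in the standard preparation; open points are libraries, and bars give the mean and SD of the 6 libraries of both genotypes. Cct6a lies above the mean in every pellet library and Cct3 and Cct4 below it, and Cct8 lies above it in the pellet and below it in RNA-seq.

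In standard pellet and RNA-seq libraries, other complexes with equal subunits were wider. Prefoldin, the 6-subunit chaperone that hands actin and tubulin chains to CCT, had an SD of the log2 level of 0.473 ± 0.0659 (SD, n = 6 standard pellet libraries), with Pfdn4 lowest in all 6. In RNA-seq its SD was 0.997, with Pfdn5 7.17 to 8.87 times Pfdn4. The 14 genes of the 20S proteasome core had an SD of 1.11 ± 0.0148 in the pellet, with Psma3 lowest in 5 of 6 libraries and Psma6 highest in 4, and of 0.574 in RNA-seq. The complexes differ in size and in how many copies of their genes the genome holds, and the difference in spread was not tested. In low nuclease fraction 5/6 the SD of prefoldin, 0.379 ± 0.0327, lay within the spread between libraries of that of the subunits, 0.350 ± 0.0469 (SD, n = 6).

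Occupancy of all 8 subunits was high. In WT, pellet footprints against RNA-seq were higher for 8 of 8 subunits, with log2 fold changes of 1.94 to 2.68 and a median of 2.18, where 31.1% of the 16162 genes tested were called higher (adjusted p under 0.05 by the quasi-likelihood test of edgeR, Benjamini-Hochberg). In FMR1 KO they were higher for 8 of 8, with log2 fold changes of 1.78 to 2.48 and a median of 2.03, where 31.9% of 16129 genes were called higher. The 8 genes stood at percentiles 93.6 to 97.1 of all genes in WT and 91.2 to 95.7 in FMR1 KO. Without scaling by TMM the medians of the 8 were 1.03 and 0.95, while the medians of all genes were -1.26 and -1.17, so the distance from the median gene was 2.29 in WT under both scalings.

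Cct8 had the highest occupancy of the 8. It was at 511, 524 and 509 CPM in the WT pellet and 165, 182 and 192 CPM in WT RNA-seq, and the groups did not overlap. The log2 fold change was 2.68 ± 0.13 (SE, adjusted p = 6.3e-06 by edgeR). In FMR1 KO, Cct8 was at 582, 377 and 567 CPM in the pellet and 196, 188 and 202 CPM in RNA-seq, with a log2 fold change of 2.48 ± 0.12 (SE, adjusted p = 1.02e-05 by edgeR). Cct6a came next in WT at 2.33 ± 0.12, from 508, 540 and 469 CPM in the pellet against 206, 233 and 234 CPM in RNA-seq. Cct5 and Tcp1 had the lowest values in both genotypes. For Cct5, 426, 448 and 391 CPM in the WT pellet stood against 236, 252 and 244 CPM in RNA-seq, a log2 fold change of 1.94 ± 0.12 (SE). For Tcp1, 446, 471 and 429 CPM stood against 269, 244 and 258 CPM, with 1.96 ± 0.12. No pellet library of these 4 genes was as low as the highest RNA-seq library of the same genotype. The other 4 subunits lay between, at 2.11 (Cct2), 2.15 (Cct7), 2.21 (Cct4) and 2.25 (Cct3) in WT.

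Footprints of fraction 5/6 gave like values. Against RNA-seq, 8 of 8 subunits were higher in WT with a median of 1.98 (24.7% of 16168 genes were called higher) and 8 of 8 in FMR1 KO with a median of 1.94 (29.8% of 16143). In FMR1 KO, Cct4 was highest there at 2.36 ± 0.15 followed by Cct6a at 2.32 ± 0.15 and Cct8 at 2.09 ± 0.16. In WT, Cct8 was highest at 2.38 ± 0.21 (SE), followed by Cct6a at 2.29 ± 0.20 and then Cct4. Without WT fraction 5/6 replicate 3, Cct8 was at 2.33, Cct6a at 2.43 and Cct4 at 2.35, and the median of the 8 was 1.98. These comparisons share the RNA-seq libraries with those of the pellet. In WT without TMM scaling, 5 of 8 subunits were called higher, where 5.62% of all genes were, and Tcp1, Cct5 and Cct7 were not (log2 fold changes 0.65, 0.75 and 0.84).

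**Figure D3:**
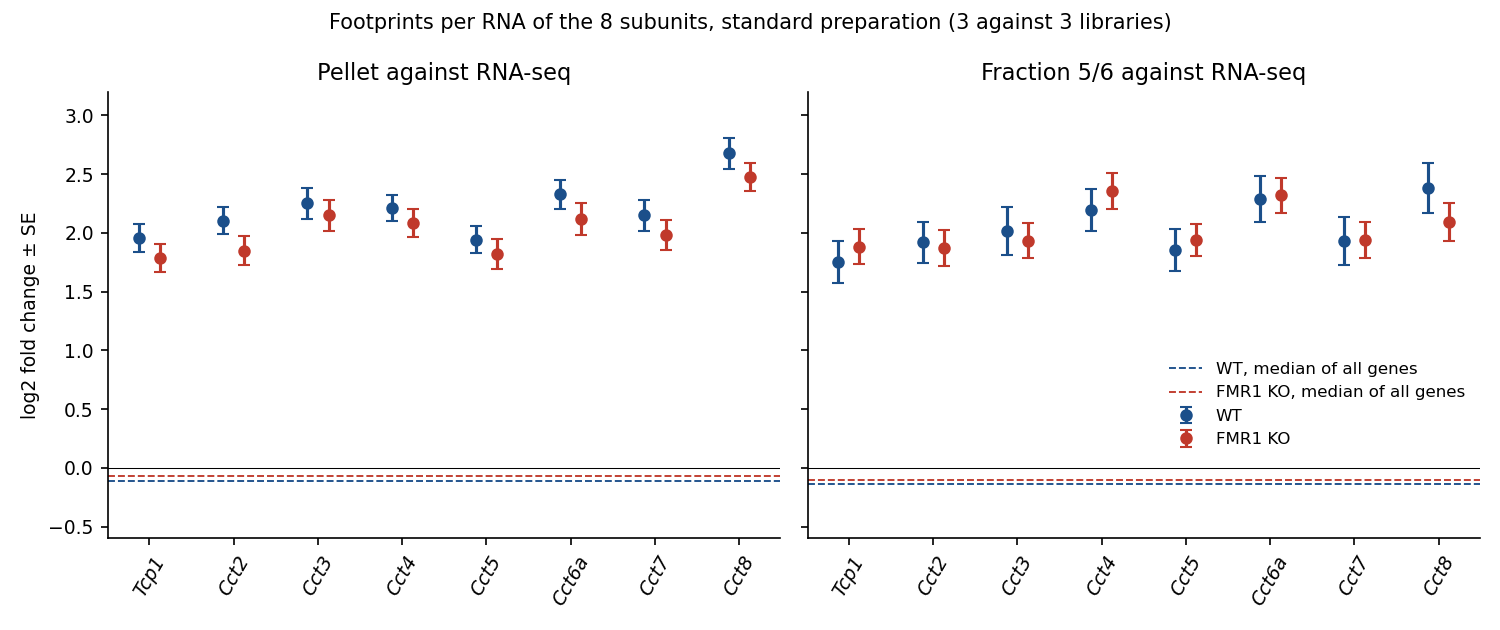
Log2 fold change of footprints against RNA-seq for each subunit, with its SE, for the pellet (left) and fraction 5/6 (right) of the standard preparation (3 against 3 libraries, edgeR with TMM scaling); dashed lines give the median of all genes tested. All 8 subunits lie between 1.75 and 2.68, above the medians of all genes, which lie between -0.14 and -0.07.

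Loss of FMRP changed none of the 8 beyond the spread between libraries. In the pellet, log2 fold changes of FMR1 KO against WT ran from -0.07 (Cct2) to 0.06 (Cct3), with 3 of 8 above 0. Without FMR1 KO pellet replicate 2, 6 of 8 were above 0, from -0.04 to 0.13. No subunit was called by edgeR or DESeq2 and 0 of 8 had an unadjusted p under 0.05, where 0.015% of 13370 genes were called, among them Fmr1 at -3.72. The SEs were 0.11 to 0.13. In RNA-seq the 8 values were all above 0, from 0.05 to 0.15 with a median of 0.11, where the median of all genes was 0.00; 0 of 8 were called by either tool, 0 of 8 had an unadjusted p under 0.05, and 0.0735% of 16330 genes were called. The median of the 8 in RNA-seq was 0.08 without WT RNA-seq replicate 1 and 0.12 without WT RNA-seq replicate 2. In bulk tissue, fewer cells of a type and less RNA per cell cannot be told apart.

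The other genotype comparisons gave the same picture, each with 0 of 8 subunits called by edgeR and DESeq2 and 0 of 8 at an unadjusted p under 0.05. In fraction 5/6 the values ran from -0.28 (Cct8) to 0.07 (Cct4), where 0% of 13076 genes were called. Without WT fraction 5/6 replicate 3 they ran from -0.14 (Cct8) to 0.05 (Cct7). Without FMR1 KO fraction 5/6 replicate 2, 8 of 8 were below 0 (-0.42 to -0.01), and without replicate 1, 6 of 8 were above 0 (-0.15 to 0.18). For occupancy they ran from -0.22 (Cct2) to -0.06 (Cct3), with 8 of 8 below 0 and a median of -0.13 (0.0672% of 16368 genes called). Without FMR1 KO pellet replicate 2, 6 of 8 were below 0 and the median was -0.06. For enrichment they ran from -0.13 (Tcp1) to 0.27 (Cct8), where 0% of 13679 genes were called. Without WT fraction 5/6 replicate 3, Cct8 was at 0.12, and 2 to 7 of 8 were above 0 with any 1 library left out. With library size without Cdk8 in place of TMM, the median of all genes moved from -0.03 to 0.28 in fraction 5/6 and from 0.03 to -0.29 for enrichment, and the subunits' medians moved to 0.31 and -0.35. In the low nuclease pellet they ran from 0.05 (Cct7) to 0.17 (Cct6a), with a median of 0.12 (0.0197% of 15261 genes called), and without FMR1 KO pellet replicate 1 of that preparation the median was -0.02.

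Between pellet and fraction 5/6, Cct8 stood highest of the 8 in each of the 4 comparisons with all libraries in the fit. In the low nuclease preparation of FMR1 KO it was at 600, 498 and 496 CPM in the pellet and 333, 271 and 335 CPM in fraction 5/6, so that the groups did not overlap. The log2 fold change was 0.96 ± 0.19 (SE, adjusted p = 0.0241 by edgeR), and Cct8 was the only subunit called of 8, where 20.6% of 15577 genes were called in either direction and 8.81% higher. Leaving out any of 4 of the 6 libraries (FMR1 KO pellet replicate 2 or any of the 3 fraction 5/6 libraries) ended this call, with adjusted p of 0.0617 to 0.0762 and log2 fold changes of 0.83 to 1.04. The other 7 subunits had values of 0.24 (Cct5) to 0.55 (Cct2), and 4 of 8 had an unadjusted p under 0.05. DESeq2 called Cct2, Cct3 and Cct8 higher, along with 14% of all genes.

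In low nuclease WT, Cct8 was at 590, 520 and 524 CPM in the pellet and 302, 443 and 254 CPM in fraction 5/6, with a log2 fold change of 0.81 ± 0.24 (SE, adjusted p = 0.0554 by edgeR). None of the 8 was called and 1 had an unadjusted p under 0.05, where 22.9% of 15584 genes were called in either direction. Same-numbered libraries were correlated above 0.1 over genes in all 3 pairs here, though the labels state no pairing. With the replicate number as a block, Cct8 was called at 0.86 (adjusted p = 0.0429 by edgeR), and the count over all genes rose to 5035 from 3566. DESeq2 called it as well, with 19% of all genes called higher. Cct4 was at -0.14 ± 0.22 there.

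In the standard preparation no subunit was called by edgeR. In FMR1 KO, Cct8 was at 0.49 ± 0.20 (SE, adjusted p = 0.143 by edgeR) and ran from 0.18 to 0.67 over the alternatives run. DESeq2 called Cct8, where it called 11.9% of all genes higher. Cct4 was lowest at -0.17 ± 0.18 and ran from -0.47 to -0.02 over the alternatives. Of the 8, 1 had an unadjusted p under 0.05, where 11.5% of 13249 genes were called. In WT the 8 values ran from -0.03 (Cct4) to 0.25 (Cct8), with 0 of 8 called by either tool and 0 of 8 at an unadjusted p under 0.05, where 0.0229% of 13077 genes were called. Without WT fraction 5/6 replicate 1, Cct8 was at 0.14, below Tcp1 at 0.17, and without WT pellet replicate 3 it was at 0.21, below Cct7 at 0.22. Without WT fraction 5/6 replicate 3, Cct8 was at 0.39 with an adjusted p of 0.152 by edgeR, and the count over all genes rose from 3 to 1293.

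Seen within the ring, the ratio of Cct8 to Cct4 was lower in fraction 5/6 than in the pellet in all libraries but 1. This pair was chosen after the values were seen and is given without a test. The ratio of Cct8 to Cct4 per kb was 1.45, 1.39 and 1.54 in the standard WT pellet and 1.47, 1.57 and 1.44 in the FMR1 KO pellet. In fraction 5/6 it was 0.952, 1.15 and 1.56 in WT and 0.914, 0.971 and 0.938 in FMR1 KO. The 1.56 is that of the library labelled WT fraction 5/6 replicate 3, the only fraction 5/6 library inside the range of the pellet libraries. In the low nuclease preparation pellet libraries had 1.51, 1.26 and 1.46 in WT and 1.33, 1.30 and 1.32 in FMR1 KO. Fraction 5/6 libraries of that preparation had 0.594, 0.866 and 0.714 in WT and 0.779, 0.802 and 0.868 in FMR1 KO. All 12 pellet libraries lay above all 11 remaining fraction 5/6 libraries. In standard RNA-seq the ratio was 0.788 to 0.972, and in the low nuclease RNA-seq libraries it spread from 1.08 to 2.53.

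**Figure D4:**
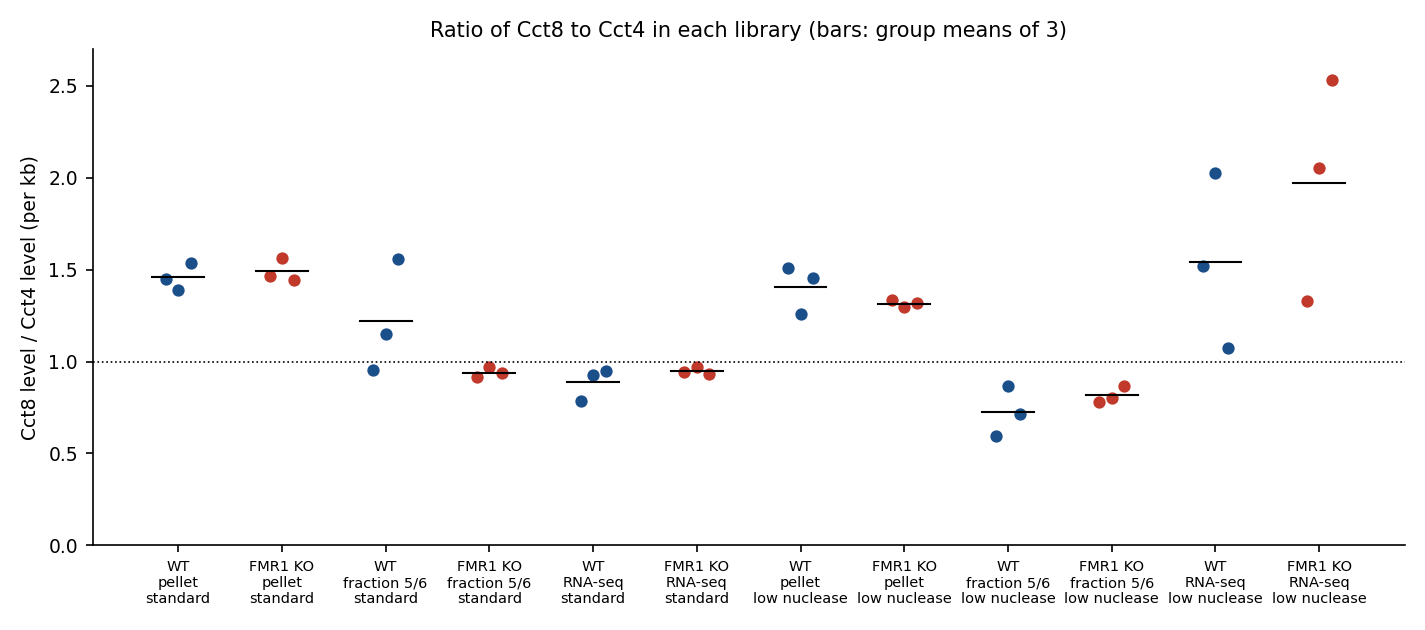
Ratio of the Cct8 level to the Cct4 level (per kb of coding sequence for footprints, of transcript for RNA-seq) in each library; points are libraries, bars are means of 3, and the dotted line marks equal levels. Pellet libraries lie between 1.26 and 1.57 and fraction 5/6 libraries between 0.594 and 1.15, apart from WT fraction 5/6 replicate 3 at 1.56.

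Relative to the ring mean, several other subunits also separated the pellet from fraction 5/6. Groups did not overlap for 6 of 8 subunits in standard FMR1 KO (30.2% of 13715 genes, set against the same ring mean, did not overlap), 7 of 8 in low nuclease WT (42.1%), 5 of 8 in low nuclease FMR1 KO (56.8%) and 0 of 8 in standard WT (13.8%). Without WT fraction 5/6 replicate 3 it was 6 of 8 in standard WT (51.7%). The share of all genes is high as well, so these counts do not set the subunits apart. In low nuclease FMR1 KO, for example, Cct5 was lower in the pellet than in fraction 5/6 by 0.22 on the log2 scale and Cct4 by 0.20, while Cct8 was higher by 0.49.

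Per kb of coding sequence, the mean spread among the subunits was larger in fraction 5/6 than in the pellet, a difference that was not tested. The SD of the log2 level over the 8 subunits was 0.291 ± 0.0283 (SD, n = 6) in standard fraction 5/6 and 0.350 ± 0.0469 in low nuclease fraction 5/6, against 0.244 and 0.270 in the matching pellets. In standard fraction 5/6 it was 0.246 in the library labelled WT replicate 3 and 0.273 to 0.327 in the other 5. With the union of exons the SD was 0.680 against 0.647 in the standard and 0.624 against 0.615 in the low nuclease preparation, within the spread between libraries in the latter. Over all genes it was 2.67 against 2.60 and 2.46 against 2.34. In low nuclease fraction 5/6 the highest subunit, Cct6a, was 1.86 to 2.60 times the lowest, which was Cct8 in 5 of 6 libraries and Cct3 in the other.

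Footprint peaks, sites where footprints pile up on an mRNA, were deposited for the 12 standard footprint libraries. They numbered 148 on 7 of the 8 subunits, of which 147 had their centre in the coding sequence and 1 had it before the start codon of Cct8. Cct3 had 47 peaks, Tcp1 23, Cct4 and Cct7 21 each, Cct8 17, Cct5 12 and Cct2 7. None was listed for Cct6a, although its level was the highest. Its transcript is not protein-coding in M21, but each library listed peaks on 15 to 53 transcripts not given as protein-coding there. Why Cct6a had none was not tested. The 4 libraries with the fewest peaks over all transcripts (11389 to 18652) had 22 to 25 peaks on these genes, and the other 8 libraries (21740 to 36435 peaks) had 3 to 9. WT fraction 5/6 replicate 3 held 9 of the 148. By the described method a peak must rise to a set multiple of the mean of its transcript, but the sources used here do not say whether the files hold only peaks past that minimum. Heights on these genes ran from 5 (on Cct3) to 306 (on Cct5).

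No peak centre of the 8 genes lay within 6 nt in all 6 pellet libraries. Within 12 nt, 1 site did, on Cct7. A stretch was covered by a peak in all 12 libraries on Cct3 (19 nt), in all 6 pellet libraries on Cct3 (20 nt) and Cct7 (25 nt), and in no more than 9 libraries on any other subunit. The 4 sites covered in the most libraries are shown. The most covered stretch was 19 nt on Cct3, 22 nt on Cct7, 51 nt on Cct5 and only 2 nt on Tcp1. On Tcp1 the centres of the covering peaks ran from nt 1315.5 to 1357.5 of the transcript, so its site is an overlap of spread peaks. Each line gives 27 nt of the coding strand, 5′ to 3′, with the codon at the middle of the most covered stretch in capitals.
Cct3, codon 49 of 546, 12 of 12 libraries: tctatgatgaagATGcttttggaccca
Cct7, codon 91 of 545, 11 of 12 libraries: gatgctgaggttGGTgatggcaccacc
Tcp1, codon 382 of 557, 9 of 12 libraries: cgaggagcaaatGATttcatgtgtgat
Cct5, codon 241 of 542, 8 of 12 libraries: ccacagatgccgAAAaaagtggtagat
The sequences are those of the GENCODE M21 transcripts (GRCm38), and all lie in coding exons. The Cct3 window lies at chr3:88300839-88300850 in exon 3 and chr3:88300929-88300943 in exon 4, and the Cct7 window at chr6:85460040-85460048 in exon 3 and chr6:85461045-85461062 in exon 4. The Tcp1 window lies at chr17:12923252-12923278 in exon 10, and the Cct5 window at chr15:31594334-31594348 in exon 5 and chr15:31594235-31594246 in exon 6. Of the 30-mers that overlap the codon in capitals, 23 of 32 occur once in the genome for Cct3, 30 of 32 for Cct7 and 32 of 32 for Tcp1 and Cct5.

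On Cct3 the centres in the pellet libraries were at nt 258.5, 264 and 268.5 of the transcript in WT and 256.5, 263.5 and 269 in FMR1 KO, and the site was also covered in all 6 fraction 5/6 libraries. It lies 8.97% into the coding sequence. On Cct7 the pellet centres were at nt 871.5, 880 and 879.5 in WT and at 879, 879 and 871.5 in FMR1 KO, and 5 of 6 fraction 5/6 libraries covered the site.

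**Figure D5:**
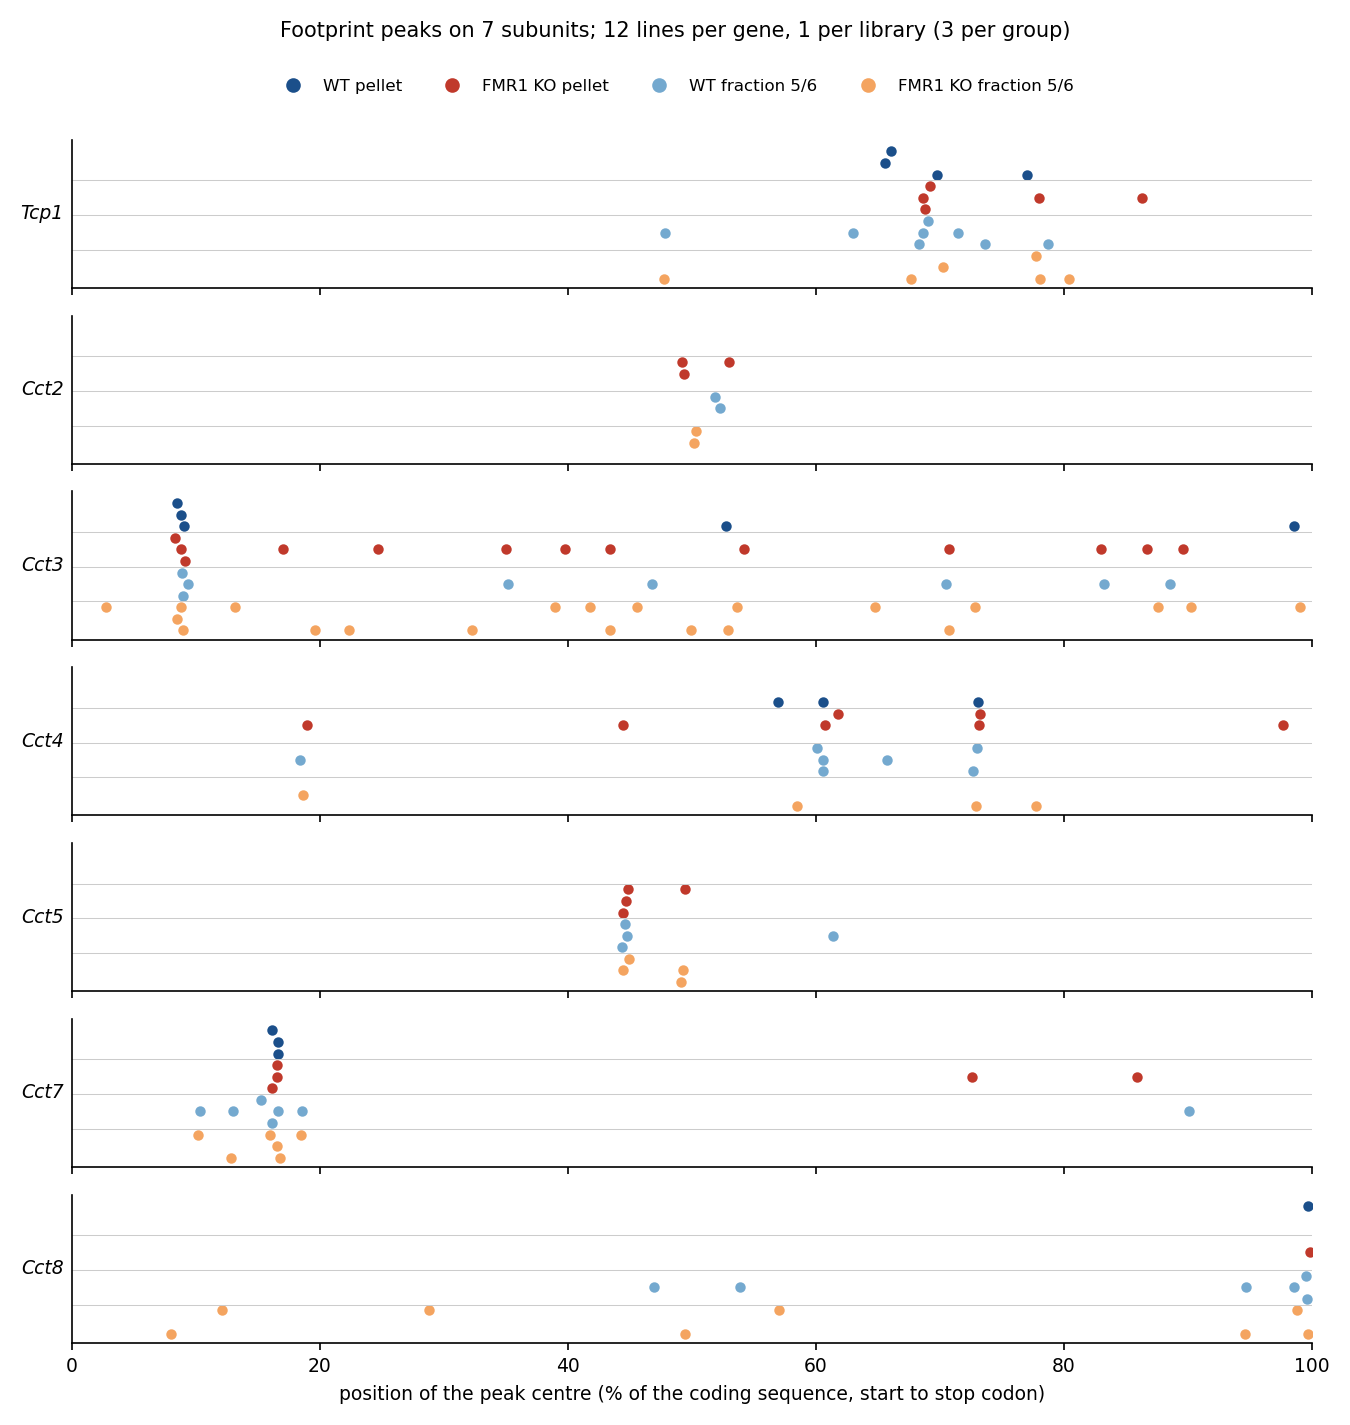
Centre of each footprint peak along the coding sequence of 7 subunits, as percent of its length from start to stop codon; each gene has 12 lines, 1 per library, with the WT pellet on top, then FMR1 KO pellet, WT fraction 5/6 and FMR1 KO fraction 5/6. Peaks recur near 8.97% on Cct3 and 16.7% on Cct7 in libraries of all 4 groups.

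Other subunits had stretches covered in fewer libraries. On Cct8, 7 libraries covered codon 543 of 549, close to the stop codon (1 WT and 1 FMR1 KO pellet library and 5 fraction 5/6 libraries). On Cct4, 6 libraries covered codon 331 of 540, and on Cct2, 6 covered codon 271 of 536, with only 1 nt in common. WT pellet libraries had no peak on Cct2 or Cct5, where FMR1 KO pellet libraries had 3 and 4, in 2 and 3 libraries. This difference was not tested. Over all subunits with peaks, FMR1 KO pellet replicate 2 held 25 of the 38 peaks in the FMR1 KO pellet, mostly on subunits other than Cct2 and Cct5.

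Of 20 partners of CCT (the paralogue Cct6b, 6 prefoldin subunits, 3 phosducin-like cofactors, 5 tubulin folding cofactors, 3 chaperonin-like Bardet-Biedl proteins and the mitochondrial chaperonin Hspd1 and Hspe1), 11 had higher and 4 lower occupancy in WT, with 31.1% and 34.3% of all genes called, and their median was 0.64 where that of the 8 subunits was 2.18. In FMR1 KO 12 were higher and 4 lower (31.9% and 35.2% of all genes), with a median of 0.55. These directions rest on TMM scaling. With library size without Cdk8, 2 partners were higher and 10 lower in WT with a median of -0.50, where 8.69% and 67.9% of all genes were called and their median was -1.26. In FMR1 KO 2 were higher and 12 lower with a median of -0.57, against 7.81% and 62.4% of all genes and a median of -1.17. Of the partners called, the largest changes under TMM in WT were 1.92 for Bbs12, 1.70 for Tbce, 1.67 for Bbs10 and 1.47 for Pdcl. Bbs12 and Bbs10 are chaperonin-like proteins that act with CCT on the BBSome. Tbce opens tubulin dimers, and Pdcl is a phosducin-like cofactor of CCT. Tbca was at -1.79 in FMR1 KO. Cct6b, best known from testis, was at 0.0801 to 1.40 CPM in standard libraries. In the low nuclease footprints it had a median of 0.235 to 0.508 CPM in the 4 groups, but 1 library each of the WT pellet, the FMR1 KO pellet and WT fraction 5/6 held 322, 160 and 234 CPM.

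Between pellet and fraction 5/6, partners were called in both directions, and no test set them against the subunits. In the low nuclease preparation, 11 of 20 partners were lower and 2 higher in the WT pellet (8.60% and 14.3% of all genes), with a median of -0.50 where the subunits had 0.21 (0.04 to 0.36 with any 1 library left out). In FMR1 KO 8 were lower and 3 higher (11.8% and 8.81%), with -0.45 where the subunits had 0.41 (0.28 to 0.51). With the replicate block in WT, 13 were lower and 2 higher (13.4% and 18.9% of all genes), with 6 of 6 of prefoldin and 6 of 14 of the 20S core lower. Leaving out a library left 1 to 7 partners lower in WT, where 0.525% to 4.70% of all genes were lower, and 0 to 8 in FMR1 KO, where 0.165% to 6.38% were. With all 12 groups in 1 fit 1 and 0 were lower (1.64% and 2.07% of all genes), so the counts fell along with those over all genes, while the partners' medians stayed below 0 (-0.58 to -0.31). Without the block, of prefoldin, 5 of 6 were lower in WT and 4 of 6 in FMR1 KO. The largest changes among called partners were 1.04 for Tbcd, 0.80 for Bbs10, -0.79 for Txndc9 and -0.78 for Pfdn4 in WT, and -0.92 for Tbca, -0.85 for Hspe1, -0.83 for Pfdn4 and -0.75 for Pfdn2 in FMR1 KO. Cct6b was at 7.35 in FMR1 KO through the 1 pellet library at 160 CPM and was not called. Of the 20S core, 5 of 14 were lower in WT and 7 of 14 in FMR1 KO, and none was higher. In the standard preparation 1 partner was lower (Txndc9 at -0.60) and 1 higher (Tbcd at 0.87) in FMR1 KO, where 2.41% and 9.11% of all genes were called, and neither call held without replicate 1 or 3 of the FMR1 KO pellet or of FMR1 KO fraction 5/6, or with library size without Cdk8. Of the 20S core, 4 of 14 were lower there in FMR1 KO and 0 of 14 in WT, and 0 or 1 of 14 in FMR1 KO with any 1 library left out. No partner was called in WT (1 was higher without WT fraction 5/6 replicate 3) or in any genotype comparison.

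Over the 12 group means, the 8 subunits moved together. Pearson's r of the log2 CPM of each with the mean of the other 7 was 0.976 (Cct8) to 0.996 (Cct7), which placed them at percentiles 98.0 to 99.96 of 16584 genes. The genes most like the mean of the 8 were Fh1, Ndufaf7, Slc25a53, Ppp2r5e and Zcchc18, each at 0.996 or 0.997. The 12 points share the contrast of footprints with RNA-seq and the low values of the low nuclease RNA-seq libraries, so the correlations are a description of these groups.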

How the data were processed

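The authors trimmed reads with Cutadapt 2.10, removed ribosomal and non-coding RNA with Bowtie2 2.3.5, aligned to GRCm38 (Ensembl 102) with STAR 2.7.8a, removed duplicates marked by Picard with SAMtools 1.19.2, and deposited whole-number counts per gene from featureCounts 2.2.0. Removing duplicates by position lowers counts where many footprints share their ends, and so can narrow differences between well-covered genes. The deposited peak heights are signal values of footprint coverage, called per library and not scaled, and were not compared between genes.

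From the counts, CPM left out Cdk8. Coding and transcript lengths came from RefSeq on GRCm38. Coding genes (16584, by GENCODE M21 or RefSeq) were filtered with filterByExpr, scaled by TMM and tested with edgeR 4.0.16 (quasi-likelihood test, Benjamini-Hochberg adjustment over all genes tested) in R 4.3.3, with only the groups of each comparison in the fit. Alternatives were DESeq2 1.42.0, library size without Cdk8, no filter, the replicate block, all biotypes, all 12 groups in 1 fit and leaving out each library. The script was tested on simulated counts. Other values used Python with pandas and NumPy. Gene rules named the 8 members, Fmr1 and Cdk8, partners past the threshold (the 4 largest changes at most), the extremes of the 20S core and the 5 genes most like the members. The members and lists were chosen with earlier results of these data known.

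Replicate numbers were not stated to pair libraries. Only in low nuclease enrichment of WT were the deviations of same-numbered libraries correlated above 0.1 over genes in all 3 pairs (0.119 to 0.210), so the blocked value is given there beside the value without the block. The labels give replicate numbers only, and the paper describes the replicates as biological preparations of pooled brains. By its methods, footprint replicates of the same condition were combined after linker ligation. Reverse transcription, rRNA depletion and PCR followed on the combined samples. The p-values measure the spread between libraries, which leaves out differences between these pools. The pools coincide with the footprint groups, so their effect was not tested apart from fraction or genotype. Peak sequences came from GENCODE M21 transcripts.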

Additional observations from a re-analysis of the deposited data

How the results depend on the processing

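Occupancy of the 8 subunits in the pellet, and in fraction 5/6 of FMR1 KO, kept 8 of 8 calls under every alternative run, and every genotype comparison kept 0. In fraction 5/6 occupancy of WT, 5 were called with library size without Cdk8, and leaving out a library kept 8. In enrichment of FMR1 KO, 1 was called by DESeq2. In low nuclease enrichment of WT, where 0 were called, 1 was called by DESeq2, with the replicate block, with all 12 groups in 1 fit (11.4% of all genes called higher) and without WT fraction 5/6 replicate 2 (11.6%; range 0 to 1 over libraries left out). In low nuclease enrichment of FMR1 KO, where 1 was called, 3 were called by DESeq2 and with the replicate block (16.2% of all genes called higher with the block), 2 with all 12 groups in 1 fit (8.91%), and 0 to 1 with a library left out. The replicate block changed no other call of a subunit. The count over all genes in enrichment of FMR1 KO fell from 1526 to 663 with the block, and in the same comparison of low nuclease libraries it rose from 3210 to 5219; in these 2 comparisons, 2 of 3 pairs of same-numbered libraries were correlated above 0.1 over genes (0.152 and 0.361 in the low nuclease one, 0.165 and 0.244 in the other), short of all 3 pairs, and the labels state no pairing. The genotype counts over all genes rose from 2 to 66 in the pellet, from 12 to 24 in RNA-seq, from 0 to 76 in fraction 5/6, from 3 to 88 in the low nuclease pellet, from 11 to 58 for occupancy and from 0 to 41 for enrichment by DESeq2, and those of enrichment in WT from 3 to 90. With all 12 groups in 1 fit, the genotype count was 140 in the pellet and 8 in RNA-seq.

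The spread of the 8 subunits in the pellet, 0.244, was 0.647 with exonic length, 0.201 with unique coding 30-mers, 0.291 in fraction 5/6 and 0.270 in the low nuclease pellet, and changed by less than its SD with each library left out. Chosen after seeing the data, transcript length gave 0.175, leaving out Cct6a 0.211, and unique 30-mers without Cct6a 0.176. Peaks shared by the 6 pellet libraries, 0 at 6 nt, were 0 at 3 nt, with higher peaks only and with each library left out, and 1 at 12 nt; stretches covered in every library, a definition also chosen after seeing the data, were 2 in the pellet, 1 in fraction 5/6 and 1 in all 12. The shallowest footprint library held 4284209 counts without Cdk8, and 1894 to 3568 counts on each subunit.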
